A study of Mus musculus with 10 samples.

Results

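Collagen chains, laminin chains and the proteins that join or coat them in the extracellular matrix were examined in mouse pancreatic islets. The genes were taken by symbol: every gene named as a numbered collagen α chain or as a laminin α, β or γ chain, together with Fn1, Sparc, Nid1, Nid2, Hspg2, Fbn1, Dcn, Lum and Bgn. This gave 64 of the 47340 genes in the table, spread over 19 chromosomes.

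Islets of 5 floxed control (FL) mice and 5 mice lacking FIT2 in β cells (βFIT2KO, KO) were sequenced, with 1 library per mouse, to ask how the loss of FIT2 alters islet gene expression. FIT2, encoded by Fitm2, is a protein of the endoplasmic reticulum that helps form lipid droplets. FL mice carried the floxed alleles (FIT2 fl/fl) and are labelled both Flox and wild type, and KO mice carried them together with a Cre transgene, Tg(Ins2-cre)25Mgn, which a rat insulin promoter drives. All were male, 12 wk old and fed chow, and the islets of both groups recovered overnight in CMRL medium before RNA was taken. No islets with Cre alone were among the libraries, so Cre and the loss of FIT2 cannot be told apart, and whole islets hold endothelial, stromal and immune cells in which the insulin promoter is not active. In RNA from whole islets, fewer cells of a type and less RNA per cell cannot be told apart.

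Islets are wrapped in and threaded by basement membrane, most of it around their capillaries, and β cells touch it through integrins. A basement membrane is built from a laminin network and a type IV collagen network, which nidogens and the proteoglycan perlecan hold together. Outside it lies interstitial matrix, in which fibrillar collagens form ropes, type VI collagen forms beaded filaments, and small proteoglycans and glycoproteins bind to both. In islets this matrix is made largely by endothelial cells, pericytes and fibroblasts.

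The promoters of 5 genes are printed because their values carry the results below: Col4a1 and Col4a2, the abundant type IV chains; Col3a1 and Col6a6, which rose with no overlap between the groups; and Col16a1, which had the largest fall. Each is the RefSeq window (GRCm38.p6) from 250 bases before to 50 bases after the annotated start, read 5′ to 3′ on the strand of the gene. Capitals mark each match to 3 promoter motifs on either strand: the TATA box (TATAAA), the CCAAT box (CCAAT) and the GC box (GGGCGG). No match overlaps another in these windows.
Col4a1, chr8:11312777-11313076, minus strand: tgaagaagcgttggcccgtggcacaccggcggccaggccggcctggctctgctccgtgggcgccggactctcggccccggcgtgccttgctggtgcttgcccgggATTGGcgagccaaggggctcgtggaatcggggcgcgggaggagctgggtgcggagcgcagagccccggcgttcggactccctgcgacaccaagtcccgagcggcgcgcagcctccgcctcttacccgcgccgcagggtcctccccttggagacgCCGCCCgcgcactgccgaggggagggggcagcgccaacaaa
Col4a2, chr8:11312555-11312854, plus strand: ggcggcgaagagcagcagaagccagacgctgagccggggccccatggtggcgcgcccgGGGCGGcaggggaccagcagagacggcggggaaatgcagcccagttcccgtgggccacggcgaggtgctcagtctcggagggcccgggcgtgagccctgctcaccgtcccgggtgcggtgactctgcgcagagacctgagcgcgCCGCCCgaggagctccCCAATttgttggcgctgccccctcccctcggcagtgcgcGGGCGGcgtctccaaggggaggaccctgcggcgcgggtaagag
Col3a1, chr1:45311288-45311587, plus strand: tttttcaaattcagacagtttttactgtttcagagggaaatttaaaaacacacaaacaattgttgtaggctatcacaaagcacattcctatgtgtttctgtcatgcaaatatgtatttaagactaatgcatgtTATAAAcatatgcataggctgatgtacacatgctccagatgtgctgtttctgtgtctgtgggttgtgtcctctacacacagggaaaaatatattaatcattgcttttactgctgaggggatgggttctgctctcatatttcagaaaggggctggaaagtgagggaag
Col6a6, chr9:105828036-105828335, minus strand: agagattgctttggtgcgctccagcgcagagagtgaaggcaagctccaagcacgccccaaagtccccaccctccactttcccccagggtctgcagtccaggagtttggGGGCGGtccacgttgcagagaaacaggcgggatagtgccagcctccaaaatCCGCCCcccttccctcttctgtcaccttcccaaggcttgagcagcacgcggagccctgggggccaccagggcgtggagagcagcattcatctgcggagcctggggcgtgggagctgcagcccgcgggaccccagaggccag
Col16a1, chr4:130047590-130047889, plus strand: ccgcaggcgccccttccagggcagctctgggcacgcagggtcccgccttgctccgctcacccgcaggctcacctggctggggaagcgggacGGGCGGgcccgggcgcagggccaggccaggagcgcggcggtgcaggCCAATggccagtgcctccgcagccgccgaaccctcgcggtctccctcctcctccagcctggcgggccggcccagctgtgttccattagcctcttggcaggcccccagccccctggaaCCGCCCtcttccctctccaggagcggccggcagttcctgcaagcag

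Col4a1 and Col4a2 stand head to head on chromosome 8 and their windows share 78 bases, so the first and the second sequence are partly reverse complements of each other. Col3a1 is the only one of the 5 with a TATAAA match and has no match to the other motifs. Promoter windows were at hand for 45 of the 64 genes, of which 23 were tested for expression and had 26 windows, since Col18a1, Col6a2 and Lamb3 have a pair each. TATAAA was found in 2 of these 26 windows, against 13.6% of 32851 RefSeq promoters. CCAAT was found in 8 of the 26, against 37.4%, and GGGCGG in 16 of the 26, against 35.7%. Among the 12 windows of genes that were higher in KO, these motifs were found in 1, 4 and 8. A match is a match of letters only and shows no binding.

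The libraries held an estimated 21.9 to 52.7 M reads in FL and 33.2 to 44.9 M reads in KO, as judged from the spacing of the lowest values. Fitm2 was at 15.5 to 37.1 FPKM (fragments per kilobase of transcript, scaled to the mapped total) in FL and 4.30 to 9.13 FPKM in KO, with no overlap between the groups. Of 13 endocrine markers, Ins1, Ins2, Gcg and Iapp are listed at 0 in all 10 libraries, while the other 9 were detected, with somatostatin (Sst) at a mean of 4976 FPKM in FL. Those 4 genes are among the most used in islets, so a value of 0 in this table may be a failed estimate and does not show that a gene was silent. KO mouse 3 was the lowest KO mouse for 11 of the 14 genes called higher, and the results that rest on it are given with and without it.

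Of the 64 genes, 63 were detected in at least 1 library and 32 reached a mean of 1 FPKM in FL or KO and entered the limma test on log2(FPKM + 1), under Benjamini-Hochberg adjustment over all 13065 genes that reached this level. At an adjusted p of at most 0.05, 14 of the 32 were higher in KO (43.75%), against 9.05% of all genes tested. The set was proposed with earlier results of these data known, so these shares describe it and are no test of it. Another 2 were lower (6.25%), against 16.5% of all genes, and 16 were not called, where 25.5% of all genes were called in either direction. The median log2 fold change was 0.36 in these 32 genes and −0.06 in all genes tested, and 23 of the 32 had a value above 0, as did 38.1% of all genes. FL and KO mice did not overlap for 8 genes that were higher in KO, against 6.67% of all genes, and for none that was lower, against 12.5%.

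The count of genes higher in KO fell to 8 without FL mouse 3 or 4 or KO mouse 1 or 5 and to 9 without KO mouse 4, where 7.26% to 8.61% of all genes were called higher, and it was 18 without KO mouse 3 (8.71%). It was 5 when genes that changed less than 1.5-fold on the log2(FPKM + 1) scale, where low genes show smaller changes than in FPKM, were left out (2.67%) and 5 of 12 with a minimum of 5 FPKM (8.27%). Part of it depends on the level that admits a gene to the test. Col6a6, Col5a3, Fn1 and Fbn1 reached 1 FPKM in KO only, and Col14a1 and Col16a1 in FL only, so each of these was admitted by the group in which it was higher. Of the 26 genes at 1 FPKM or more in both groups, 11 were higher and 1 was lower, against 8.12% and 16.8% of all genes at that level in both, with a median log2 fold change of 0.32. Without any minimum, 11 of the 63 detected genes were higher and 1 was lower, against 5.08% and 7.54% of 24792 genes.

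**Figure D1:**
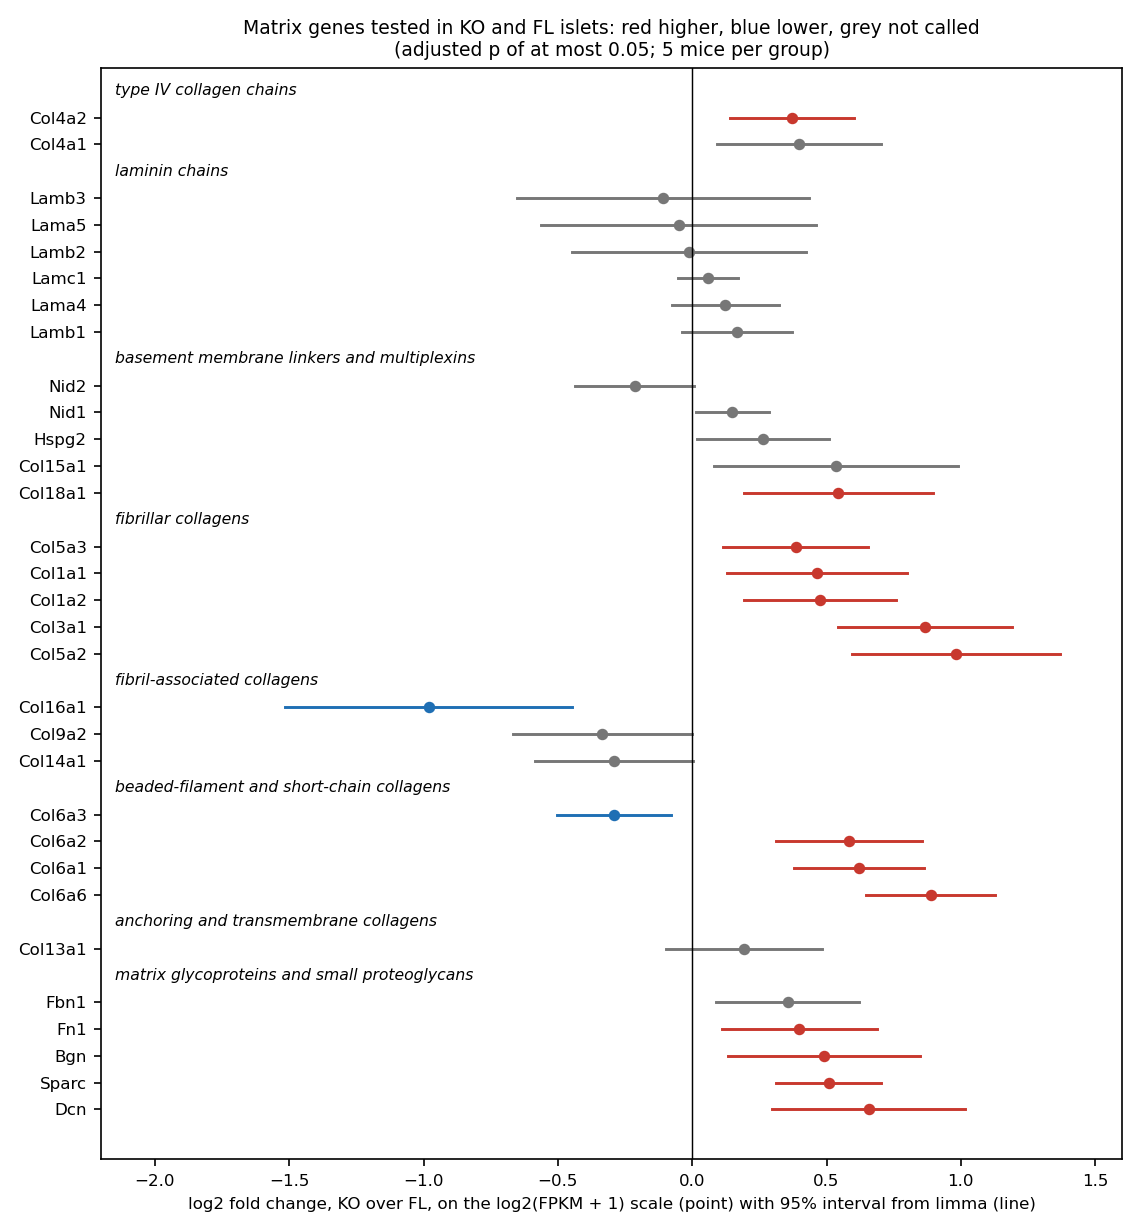
Log2 fold change of KO over FL on the log2(FPKM + 1) scale for 31 tested genes, grouped by role, with the 95% interval from limma (line). The 5 fibrillar collagens lie to the right of 0, between 0.39 and 0.98, and the 6 laminin chains drawn lie close to 0, between −0.11 and 0.17.

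Type IV collagen chains form the network of every basement membrane, and the main network is woven from trimers of the α1 and α2 chains. Col4a1 was at 38.2, 42.1, 41.4, 35.6 and 47.0 FPKM in FL mice 1 to 5 and 60.5, 56.7, 37.5, 52.0 and 67.7 FPKM in KO mice 1 to 5. KO mouse 3 lay inside the FL range and the other 4 KO mice lay above it. The means were 40.9 ± 4.31 and 54.9 ± 11.3 FPKM (SD, n = 5), and the log2 fold change of 0.40 ± 0.14 (SE) missed the threshold (limma, adjusted p = 0.0569). Without KO mouse 3 it was 0.52 (adjusted p = 0.00358). It also passed when the libraries were rescaled by median ratio, upper quartile, TPM or quantiles (adjusted p = 0.0438 to 0.0474), and with sample weights (adjusted p = 0.0405). In the other 16 of its 22 alternative fits it stayed uncalled (limma, adjusted p of up to 0.126).

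Col4a2 was at 18.9, 25.0, 21.6, 20.5 and 22.2 FPKM in FL and 27.5, 32.6, 22.2, 28.0 and 32.0 FPKM in KO. The 4 KO mice other than mouse 3 lay above every FL mouse. Its log2 fold change was 0.37 ± 0.10 (SE; limma, adjusted p = 0.0239), and the call was lost without FL mouse 1, 3 or 4 or KO mouse 4 or 5 (adjusted p = 0.0503 to 0.0585). The ratio of the 2 genes overlapped between the groups: Col4a2 stood at 0.473 to 0.594 of Col4a1 in FL and at 0.454 to 0.591 in KO, on the FPKM scale, which is per length. The other 4 type IV chains, which occur in specialised basement membranes such as that of the kidney glomerulus, had a mean of at most 0.141 FPKM in either group (Col4a5). KO mouse 3 was the lowest KO mouse both in the sum of the 6 type IV genes, at 60.0 FPKM against 80.3 to 99.9 FPKM in the others, and in the sum of 14 endothelial markers, at 278 FPKM against 312 to 368 FPKM. KO mouse 3 was also the lowest KO mouse in the sum of the laminin genes, at 53.0 FPKM. The same held for markers of Schwann cells and ducts, at 22.3 and 743 FPKM against at least 25.1 and 809 FPKM in the other KO mice. For markers of fibroblasts and stellate cells, KO mouse 3 was nearly level with KO mouse 2 (35.5 and 35.6 FPKM). KO mouse 3 was not the lowest for pericyte, macrophage, acinar or endocrine markers. The part of the endothelial markers in the type IV result was not tested.

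None of the 7 laminin chains tested was called in the limma fit, where 25.5% of all genes were called in either direction. With only 7 genes, a count of 0 shows nothing particular to the class. The smallest unadjusted p among the 7 in that fit was 0.103, for Lamb1. The summed FPKM of the 11 laminin genes was 55.1 to 64.0 in FL and 53.0 to 65.1 in KO. Lamc1, the γ1 chain shared by most laminins, was at 19.0, 18.9, 17.5, 17.0 and 16.9 FPKM in FL and 18.7, 18.5, 17.2, 19.2 and 19.6 FPKM in KO. The ranges overlapped, and the 95% interval of the log2 fold change ran from −0.05 to 0.17, the narrowest of the laminin chains given here.

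Lamb1, the β1 chain, was at 7.18, 8.71, 6.995, 7.04 and 6.57 FPKM in FL and 8.19, 8.69, 6.57, 9.42 and 8.77 FPKM in KO. FL mouse 2 stood with the KO mice and KO mouse 3 with the FL mice, and the log2 fold change was 0.17 ± 0.09 (SE; limma, adjusted p = 0.221), or 0.24 without KO mouse 3 (adjusted p = 0.0461). No other of the 22 alternative fits of Lamb1 gave a call.

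The α chains decide which receptors a laminin binds, and α4 and α5 are the chains of the vascular basement membrane. Lama4 averaged 3.30 FPKM in FL mice and 3.68 FPKM in KO mice. Lama5 was at 3.41 and 3.30 FPKM. The β2 chain Lamb2 was at 1.89 and 1.77 FPKM, and the β3 chain Lamb3 at 1.33 and 1.17 FPKM. The ranges of each overlapped between the groups, and the 95% intervals of the log2 fold change were wide for Lama5 (−0.56 to 0.46), Lamb2 (−0.45 to 0.42) and Lamb3 (−0.65 to 0.43). The sign of the difference of Lama5, Lamb2 and Lamb3 turned with the scaling, the pseudocount or a single mouse.

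Of the 5 proteins that join or line the 2 networks, 1 was called, where 25.5% of all genes were called in either direction. A count this near that share shows nothing particular to the class. The protein called was a multiplexin, a collagen that carries sulphated sugar chains. This was Col18a1, the source of endostatin, which was at 4.70, 3.96, 4.21, 3.87 and 5.94 FPKM in FL and 8.70, 6.71, 4.52, 6.93 and 9.04 FPKM in KO. All KO mice but mouse 3 exceeded the FL maximum. Its log2 fold change was 0.54 ± 0.16 (SE; limma, adjusted p = 0.0289), and the call was lost without FL mouse 2, 3 or 4 or KO mouse 1, 4 or 5 (adjusted p = 0.0590 to 0.0726) and without a minimum level (adjusted p = 0.0665). Col15a1, its close relative, was at 11.1, 10.5, 11.8, 13.5 and 14.3 FPKM in FL and 22.7, 23.7, 10.03, 15.5 and 22.8 FPKM in KO. KO mouse 3 was below every FL mouse and the other 4 were above every FL mouse. This gave a log2 fold change of 0.54 ± 0.21 (SE; limma, adjusted p = 0.0804), or 0.73 without KO mouse 3 (adjusted p = 0.00363). Col15a1 was called in no other of its 22 alternative fits.

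Neither of the nidogens, which bridge laminin and type IV collagen, was called. Nid1 was at 6.02, 7.10, 6.51, 6.36 and 6.14 FPKM in FL and 6.87, 7.31, 6.53, 7.75 and 7.75 FPKM in KO, with a log2 fold change of 0.15 ± 0.06 (SE; limma, adjusted p = 0.0965, or 0.0470 after quantile normalization). The fit after quantile normalization was the only 1 of its 22 alternative fits to call Nid1. Nid2 averaged 2.38 FPKM in FL mice and 1.91 FPKM in KO mice (limma, adjusted p = 0.143). Taken as a ratio within each mouse, Nid2 stood at 0.410, 0.438, 0.334, 0.320 and 0.346 of Nid1 in FL and at 0.236, 0.257, 0.263, 0.268 and 0.289 in KO, so that the ratio was lower in each KO mouse than in any FL mouse. Nid2 shares exon sequence with Rtraf on the opposite strand, and Nid1 with Gm48682. Perlecan (Hspg2), the large heparan sulphate proteoglycan, averaged 3.71 FPKM in FL mice and 4.71 FPKM in KO mice and was not called (limma, adjusted p = 0.108).

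**Figure D2:**
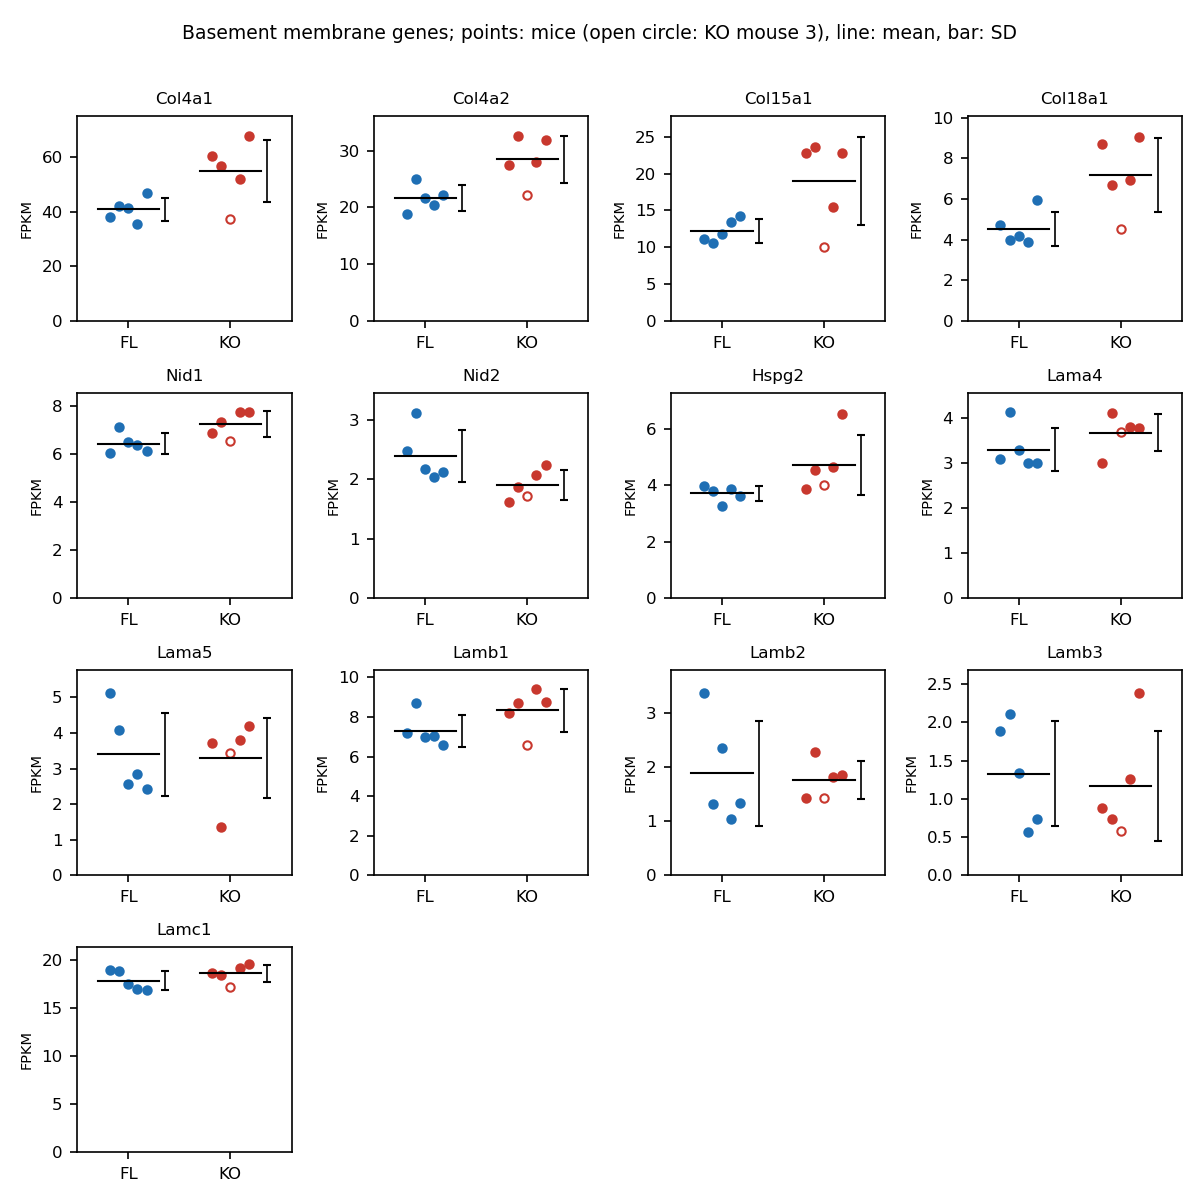
FPKM of 13 tested basement membrane genes in each mouse (points; open circle, KO mouse 3), with the group mean (line) and SD (bar) of 5 FL and 5 KO mice. For Col4a1, Col4a2, Col15a1 and Col18a1 the 4 filled KO points lie above all FL points, and the 6 laminin panels show overlapping groups.

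Of the fibrillar collagens, 5 were tested and all 5 were higher in KO, against 9.05% of all genes tested. Col5a3 was admitted by its level in KO. The 4 at 1 FPKM or more in both groups were all higher, against 8.12% of all genes at that level. The 11 genes of the class summed to 7.88 to 17.4 FPKM in FL and 21.2 to 26.8 FPKM in KO, with no overlap. The summed markers of pericytes and smooth muscle moved in the same way, at 15.5 to 22.2 FPKM in FL and 23.6 to 30.7 FPKM in KO. Those of fibroblasts and stellate cells did too, at 23.8 to 29.4 and 35.5 to 45.4 FPKM. Most of this last sum was Cd34 (means of 21.3 FPKM in FL and 31.5 FPKM in KO), which endothelial cells also express. The part of these markers in the fibrillar collagen result was not tested. Col3a1, the chain of the type III collagen of vessels and soft tissue, was the most abundant of the fibrillar collagens. It was at 7.24, 5.47, 5.15, 3.92 and 8.32 FPKM in FL and 11.3, 10.8, 11.1, 11.8 and 12.6 FPKM in KO. Each KO mouse was above each FL mouse, KO mouse 3 included, and the FL mice varied more than the KO mice (SD of 1.75 against 0.716 FPKM, n = 5). The log2 fold change was 0.87 ± 0.15 (SE; limma, adjusted p = 0.00179), and the exact two-sided permutation p over the mice was 0.00794, the smallest that 5 mice against 5 can give.

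Col5a2, a type V chain that enters the core of collagen fibrils and limits their width, had the largest log2 fold change of the 32 genes with a pseudocount of 1, whereas with 0.01 the value was 1.42 for Col5a2 and 2.44 for Col6a6. It was at 1.64, 1.36, 1.20, 0.904 and 2.55 FPKM in FL and 4.97, 4.61, 2.92, 3.04 and 4.25 FPKM in KO. The groups did not overlap, with KO mice 3 and 4 lowest in KO and FL mouse 5 highest in FL, and the log2 fold change was 0.98 ± 0.18 (SE; limma, adjusted p = 0.00242). Col3a1 shares exon sequence with Gm47302 on the same strand, and their reads cannot be told apart. Col3a1 and Col5a2 lie tail to tail on chromosome 1, 24614 bases apart. Col5a3, another type V chain, was at 0.895, 0.776, 0.783, 0.508 and 0.963 FPKM in FL and 1.503, 1.08, 1.00, 1.24 and 1.89 FPKM in KO, again without overlap. Its log2 fold change was 0.39 ± 0.12 (SE; limma, adjusted p = 0.0405), and the call was lost without FL mouse 2, 3 or 4 or KO mouse 1, 4 or 5 (adjusted p = 0.0615 to 0.0824), without a minimum level, after quantile normalization, and with the replicate number as a block.

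Col1a1 and Col1a2 encode the chains of type I collagen, the main protein of connective tissue. Col1a1 was at 2.49, 1.603, 2.24, 1.11 and 2.71 FPKM in FL and 3.43, 3.31, 2.99, 2.41 and 3.42 FPKM in KO. KO mouse 4 lay within the FL range and the other 4 KO mice above it. The log2 fold change of 0.46 ± 0.15 (SE; limma, adjusted p = 0.0458) lost its call without FL mouse 2, 3 or 4 or KO mouse 1, 2, 3 or 5 (adjusted p = 0.0647 to 0.0981), and also with a pseudocount of 0.01, without a minimum level, after quantile normalization and with sample weights (adjusted p = 0.0505 to 0.0955). Col1a2 was at 1.83, 1.28, 1.71, 0.881 and 1.80 FPKM in FL and 2.93, 2.26, 2.13, 2.13 and 2.82 FPKM in KO, without overlap. Its log2 fold change was 0.48 ± 0.13 (SE; limma, adjusted p = 0.0205, or 0.0515 without KO mouse 1). Col1a2 stood at 0.662 to 0.799 of Col1a1 in FL and 0.681 to 0.884 in KO, so the ratio of the chains overlapped between the groups.

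Type VI collagen showed chains that moved in opposite directions. It forms beaded filaments near basement membranes from trimers of an α1, an α2 and a larger partner chain, which can be α3 or, in some tissues, α6. Col6a1 was at 2.09, 2.17, 2.31, 1.62 and 2.23 FPKM in FL and 4.53, 3.54, 3.08, 3.14 and 4.54 FPKM in KO. Col6a2 was at 2.19, 1.90, 2.17, 1.48 and 2.27 FPKM in FL and 3.67, 3.19, 2.78, 3.15 and 4.85 FPKM in KO. Neither gene had an FL mouse as high as the lowest KO mouse. The log2 fold changes were 0.62 ± 0.11 for Col6a1 (limma, adjusted p = 0.00231) and 0.58 ± 0.12 for Col6a2 (SE; adjusted p = 0.00604). The 2 genes are neighbours on chromosome 10, on the same strand and 85161 bases apart.

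Col6a3 was at 7.39, 7.22, 7.28, 7.45 and 5.81 FPKM in FL and 6.27, 5.11, 4.53, 5.38 and 6.63 FPKM in KO. FL mice 1 to 4 were above every KO mouse, and FL mouse 5 lay inside the KO range. Its log2 fold change was −0.29 ± 0.10 (SE; limma, adjusted p = 0.0468). This call was lost under each of the 4 other scalings (adjusted p = 0.0782 to 0.145) and without FL mouse 1, 2, 3 or 4 or KO mouse 2, 3 or 4 (adjusted p = 0.0890 to 0.0994). It was also lost without a minimum level, with a minimum of 5 FPKM, with sample weights and with the replicate number as a block (adjusted p = 0.0514 to 0.112), and the sign was kept in these fits.

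Col6a6 had the largest ratio of means of the 32 genes. It was at 0.148, 0.202, 0.216, 0.368 and 0.258 FPKM in FL and 1.09, 1.66, 1.51, 1.17 and 1.06 FPKM in KO. The lowest KO mouse was well above the highest FL mouse. Its mean rose 5.45-fold, the log2 fold change on the log2(FPKM + 1) scale was 0.89 ± 0.11 (SE; limma, adjusted p = 0.000212), and the value was 2.44 with a pseudocount of 0.01, since a pseudocount of 1 understates the change of a low gene. The FL mouse with the fewest reads had an estimated 28.5 reads of Col6a6. Gm38314, which overlaps it on the opposite strand, is listed at 0 in all 10 libraries, which does not show that it was silent.

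Within each mouse, Col6a3 stood at 3.54, 3.33, 3.16, 4.59 and 2.60 times Col6a1 in FL and 1.38, 1.44, 1.47, 1.71 and 1.46 times in KO. Col6a6 stood at 0.0200, 0.0280, 0.0297, 0.0494 and 0.0444 of Col6a3 in FL and at 0.174, 0.326, 0.335, 0.217 and 0.160 in KO. Neither ratio overlapped between the groups, and neither depends on the scaling of a library by a single factor. Col6a2 to Col6a1, in contrast, ranged over 0.875 to 1.05 in FL and 0.809 to 1.07 in KO. These 3 ratios were chosen after the values had been seen.

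**Figure D3:**
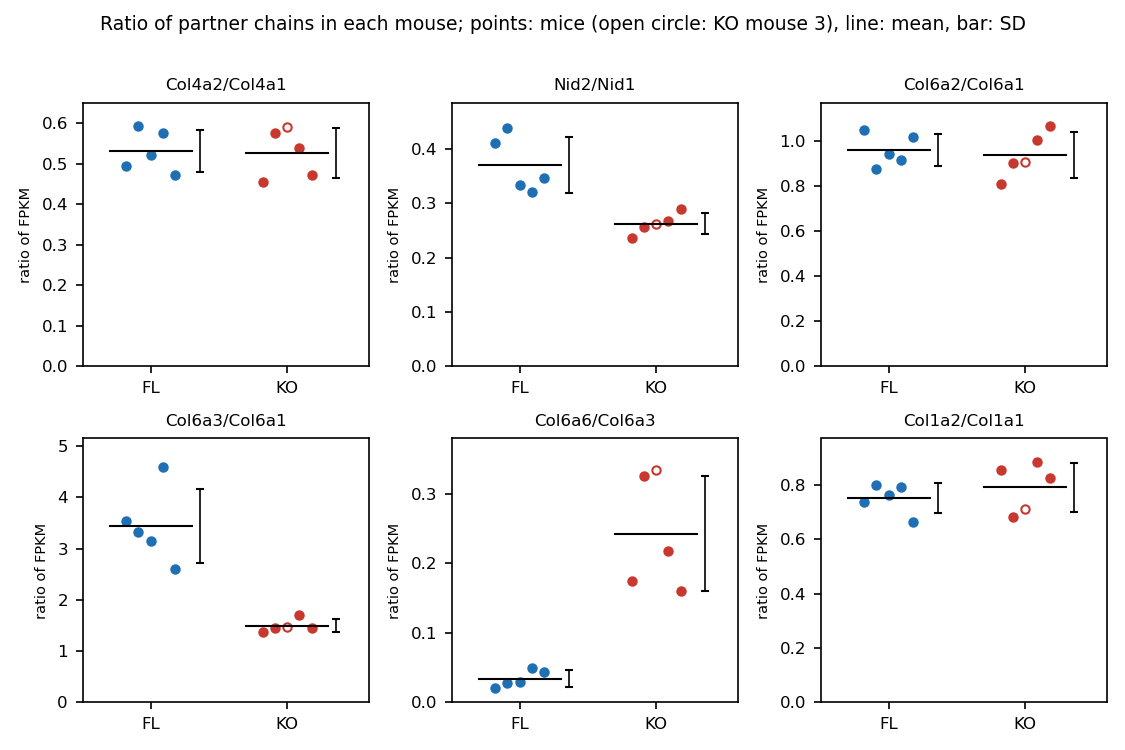
Ratio of the FPKM of partner genes in each mouse (points; open circle, KO mouse 3), with the mean (line) and SD (bar) of 5 FL and 5 KO mice. Col4a2/Col4a1, Col6a2/Col6a1 and Col1a2/Col1a1 overlap between the groups, whereas Nid2/Nid1 and Col6a3/Col6a1 are lower in every KO mouse and Col6a6/Col6a3 is higher.

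Of the fibril-associated collagens, which sit on the surface of fibrils, 3 were tested and 1 was lower in KO, against 16.5% of all genes. A count of 1 in 3 shows nothing particular to this class. Col16a1, the gene called, and Col14a1 were admitted by their level in FL only, and the remaining one, Col9a2, was not called. The 9 genes of this class summed to 5.21 to 8.41 FPKM in FL and 3.75 to 4.69 FPKM in KO, with no overlap. Col16a1 was at 1.92, 3.65, 3.81, 2.67 and 0.853 FPKM in FL and 0.979, 0.726, 0.415, 0.999 and 0.536 FPKM in KO. FL mice 1 to 4 were above all KO mice and FL mouse 5 was within the KO range. The log2 fold change was −0.98 ± 0.24 (SE; limma, adjusted p = 0.0134), the largest fall of the 32 genes, and the exact two-sided permutation p was 0.0238. Col14a1, with a mean of 1.26 FPKM in FL mice and 0.862 FPKM in KO mice, was not called (limma, adjusted p = 0.137, or 0.0383 without KO mouse 3). Col9a2, a chain of the type IX collagen best known from cartilage, averaged 2.70 FPKM in FL mice and 1.97 FPKM in KO mice (limma, adjusted p = 0.132, or 0.0189 without KO mouse 5 and 0.0248 with sample weights). The transmembrane collagen Col13a1 averaged 4.15 FPKM in FL mice and 4.96 FPKM in KO mice (limma, adjusted p = 0.315, or 0.00996 without KO mouse 3). Each of Col14a1, Col9a2 and Col13a1 had 21 alternative fits, and none but those named here gave a call.

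Of the glycoproteins and small proteoglycans that bind collagen, 5 were tested and 4 were higher in KO, against 9.05% of all genes. Fn1 and Fbn1 were admitted by their level in KO only. The 3 at 1 FPKM or more in both groups were all higher, against 8.12% of all genes at that level. Sparc (osteonectin), a calcium-binding protein that collagen-producing cells secrete, had the highest level of all 64 genes. It was at 58.6, 64.7, 56.8, 50.8 and 53.8 FPKM in FL and 77.9, 84.8, 67.3, 85.1 and 92.8 FPKM in KO. The groups did not overlap, and KO mouse 3 and FL mouse 2 came closest to each other. The means of 57.0 ± 5.26 and 81.6 ± 9.60 FPKM (SD, n = 5) gave a log2 fold change of 0.51 ± 0.09 (SE; limma, adjusted p = 0.00219).

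Decorin (Dcn) and biglycan (Bgn) are small leucine-rich proteoglycans on the surface of collagen fibrils. Dcn was at 3.13, 1.84, 2.31, 2.14 and 2.83 FPKM in FL and 4.94, 4.71, 2.70, 4.16 and 6.04 FPKM in KO. Bgn was at 14.2, 12.0, 11.2, 8.31 and 11.3 FPKM in FL and 17.1, 16.0, 11.4, 16.1 and 22.2 FPKM in KO. In both genes KO mouse 3 lay within the FL range and the other 4 KO mice above it. The log2 fold change of Dcn was 0.66 ± 0.16 (SE; limma, adjusted p = 0.0140). That of Bgn was 0.49 ± 0.16 (adjusted p = 0.0466), and its call held without FL mouse 1 or KO mouse 3 and was lost without any other single mouse (adjusted p = 0.0706 to 0.0996). It was also lost without a minimum level, without the variance trend and with the replicate number as a block (adjusted p = 0.0520 to 0.0964).

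Fibronectin (Fn1), which cells assemble into fibres through integrins, was at 1.10, 1.03, 0.803, 0.389 and 0.818 FPKM in FL and 1.78, 1.20, 1.08, 1.49 and 1.45 FPKM in KO. FL mouse 4 was far below the other FL mice, and KO mouse 3 was the only KO mouse inside the FL range. The log2 fold change of 0.40 ± 0.13 (SE; limma, adjusted p = 0.0463) lost its call without FL mouse 3, 4 or 5 or KO mouse 1, 4 or 5 (adjusted p = 0.0746 to 0.1001), and also with a pseudocount of 0.1, without a minimum level, after quantile normalization and with the replicate number as a block (adjusted p = 0.0530 to 0.0816). Fibrillin-1 (Fbn1), the main protein of elastic microfibrils, averaged 0.952 FPKM in FL mice and 1.52 FPKM in KO mice and fell just short of the threshold (limma, adjusted p = 0.0515, or 0.0120 without KO mouse 3). It passed in 9 of its 21 alternative fits.

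**Figure D4:**
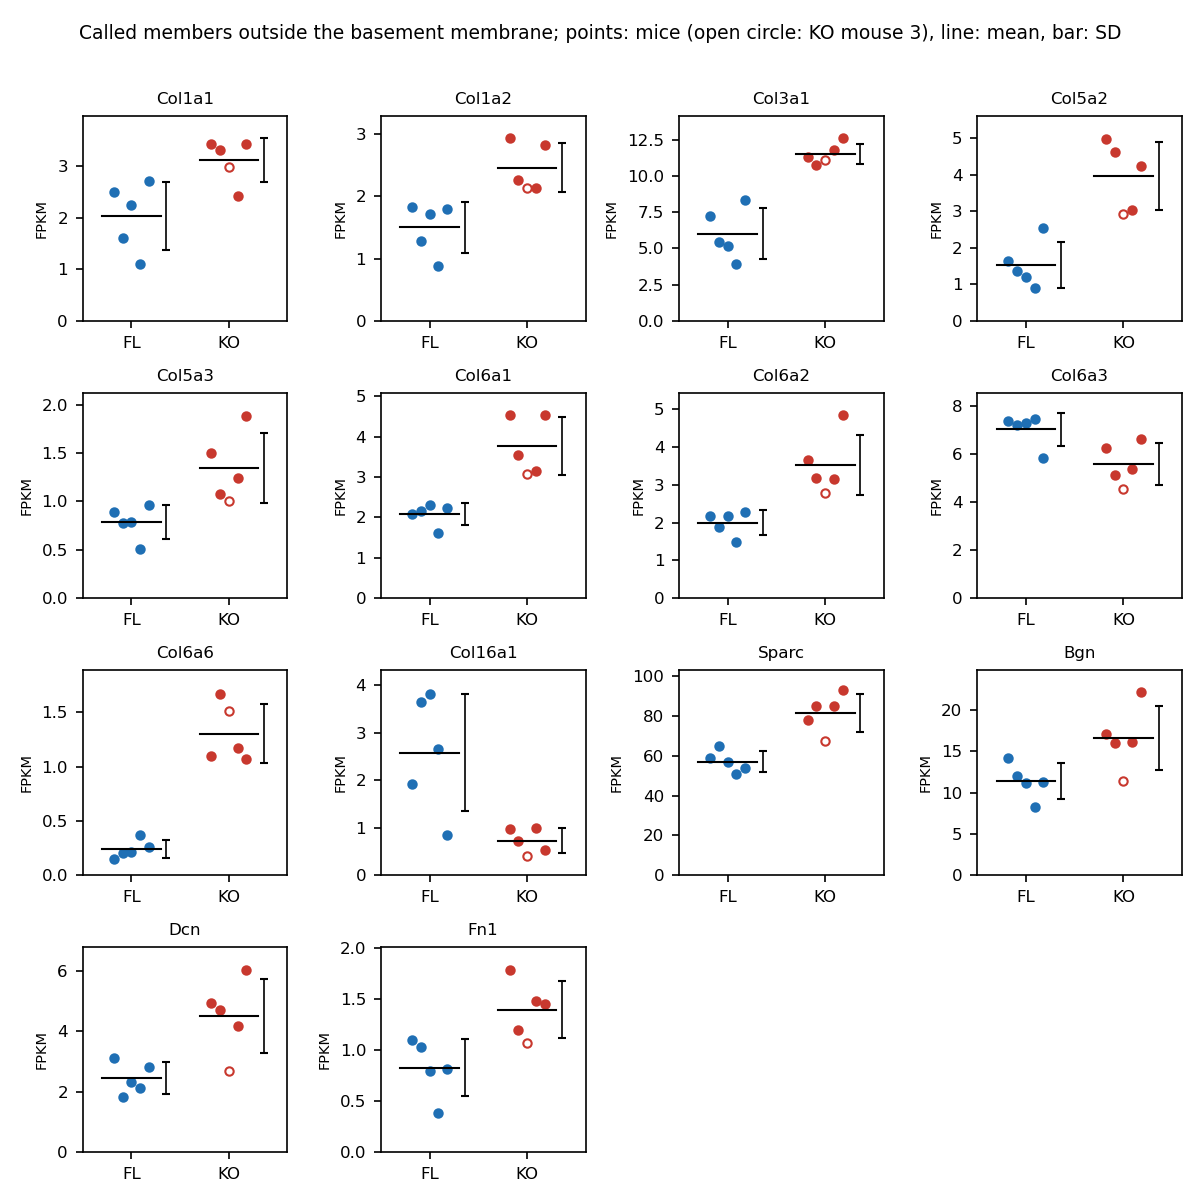
FPKM of the 14 called genes outside the basement membrane in each mouse (points; open circle, KO mouse 3), with the group mean (line) and SD (bar) of 5 FL and 5 KO mice. Col3a1 sits at 3.92 to 8.32 FPKM in FL and 10.8 to 12.6 FPKM in KO, while Col6a3 and Col16a1 have lower means in KO.

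The other 32 genes stayed under a mean of 1 FPKM in both groups and were not tested. Closest to that level were Col26a1, with a higher group mean of 0.979 FPKM, Col7a1, the anchoring fibril collagen (0.926), Col5a1 (0.894) and lumican (Lum, 0.847), while the lowest admitted genes were Col14a1 (1.26), Col6a6 (1.30), Lamb3 (1.33) and Col5a3 (1.34). A further 13 genes had a higher group mean of 0.1 FPKM or more: Lama2 (0.640), Lama3 (0.558), Col8a1 (0.488), Col28a1 (0.359), Col8a2 (0.357), Col20a1 (0.292), Col27a1 (0.269), Col11a2 (0.252), Col25a1 (0.184), Col12a1 (0.166), Lamc3 (0.142), Col4a5 (0.141) and Col4a3 (0.125). The last 15 were below 0.1 FPKM: Col19a1 (0.0860), Col6a5 (0.0739), Col11a1 (0.0610), Col4a4 (0.0563), Lama1 (0.0393), Col22a1 (0.0364), Col4a6 (0.0360), Col9a3 (0.0351), Col23a1 (0.0319), Col6a4 (0.0223), Col17a1 (0.0153), Col2a1 (0.0143), Col10a1 (0.0138), Col24a1 (0.00324) and Col9a1, which is listed at 0 in every library. With no minimum level, Col19a1 (limma, adjusted p = 7.51e-05) and Lum (adjusted p = 0.0209) were also called higher in KO.

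Genes that build, bind or cut this matrix are given beside the shares over all genes tested, of which 9.05% were higher and 16.5% lower in KO. Of 21 tested genes for collagen synthesis and crosslinking, 3 were higher and 4 lower, with a median log2 fold change of 0.07. Of 23 tested matrix receptors, likewise 3 were higher and 4 lower, with a median of 0.06. Counts this near the shares over all genes show nothing particular to either list. Among the synthesis genes, the prolyl 4-hydroxylase subunit P4ha2 fell from 40.7 to 22.3 FPKM and the crosslinking oxidase Loxl2 from 3.18 to 1.34 FPKM, whereas the prolyl 3-hydroxylase family genes P3h3 and P3h1 rose from 3.23 to 4.66 and from 19.7 to 26.1 FPKM. Among the receptors, integrin α6 (Itga6), a laminin receptor subunit, rose from 24.7 to 39.1 FPKM and Cd44, a hyaluronan receptor, from 11.6 to 17.9 FPKM, while integrin β8 (Itgb8) fell from 4.47 to 1.91 FPKM and syndecan-2 (Sdc2) from 32.6 to 25.6 FPKM.

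Of 11 tested matrix proteases and inhibitors, 2 were higher and 1 lower, with a median of 0.14. The membrane protease Mmp14 rose from 5.16 to 7.84 FPKM, its inhibitor Timp3 from 12.0 to 15.1 FPKM, and Reck, another inhibitor, fell from 2.69 to 1.96 FPKM. Of 18 other tested basement membrane and matrix proteins, 5 were higher and 3 lower, with a median of 0.19. Thrombospondin-1 (Thbs1) rose from 24.2 to 36.9 FPKM and periostin (Postn) from 1.82 to 2.80 FPKM. Fras1 and nephronectin (Npnt), proteins of epithelial basement membranes, fell from 5.91 to 2.25 and from 10.1 to 6.07 FPKM.

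Markers of several other cell types were also higher in KO. All 14 endothelial markers were detected and tested, and 7 were higher in KO, among them Cdh5 and Pecam1, against 9.05% of all genes. Their sum was 248 to 286 FPKM in FL and 278 to 368 FPKM in KO. Of 10 markers of pericytes and smooth muscle, 5 were tested and all 5 were higher, against the same 9.05% of all genes. Pdgfrb, the receptor that marks pericytes, rose from 4.39 to 6.54 FPKM, while Myh11, Tagln, Acta2, Cspg4 and Notch3 had group means under 1 FPKM.

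Of 12 fibroblast and stellate markers, 6 were tested and 3 were higher, among them Cd34 and Dpt, against 9.05% of all genes. Most of the sum of this list was Cd34, which endothelial cells also express, while the defining genes Lrat, Gli1, Pdgfra and Pi16 had group means of at most 0.00577, 0.0149, 0.445 and 0.255 FPKM. Of 12 macrophage and leukocyte markers, 9 were tested and 3 were higher, against 9.05% of all genes. The sums of these markers were 137 to 164 FPKM in FL and 196 to 234 FPKM in KO. Schwann cell markers summed to 7.32 to 10.9 FPKM in FL and 22.3 to 32.4 FPKM in KO, of which Gfra3 rose from 0.457 to 20.6 FPKM, whereas Sox10, S100b and Gfap had means of at most 0.378, 0.266 and 0.0921 FPKM. Of 8 tested ductal markers, 2 were higher and 1 was lower, against 9.05% and 16.5% of all genes. Counts this small show nothing particular to this list. The summed ductal markers overlapped, at 818 to 911 FPKM in FL and 743 to 933 FPKM in KO. Acinar markers, which show exocrine tissue, summed to 4657 to 12450 FPKM in FL and 3071 to 22720 FPKM in KO. Of 9 tested endocrine markers, 6 were lower in KO, against 16.5% of all genes. The part of these other cell types in the matrix results was not tested either.

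**Figure D5:**
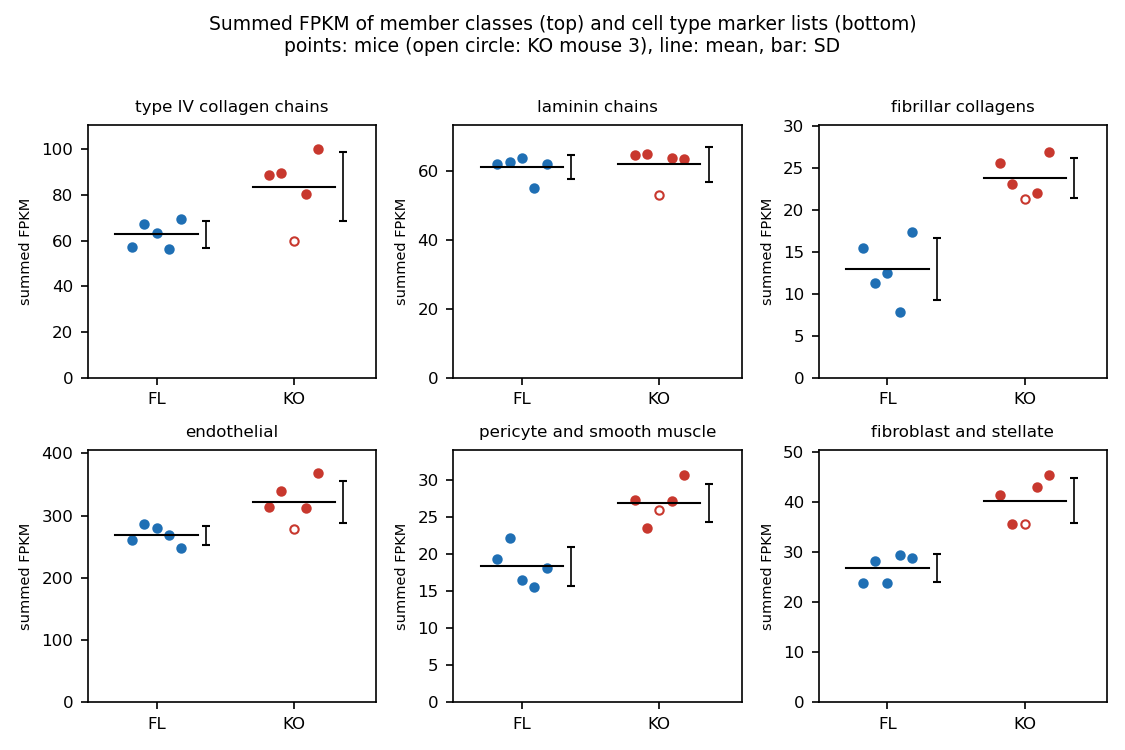
Summed FPKM in each mouse (points; open circle, KO mouse 3) of 3 classes of matrix genes (top) and 3 lists of cell type markers (bottom), with the mean (line) and SD (bar) of 5 FL and 5 KO mice. Fibrillar collagens, pericyte markers and fibroblast markers do not overlap between the groups, laminin chains do, and KO mouse 3 is the lowest KO mouse for type IV collagen and for endothelial markers. Most of the fibroblast sum is Cd34, which endothelial cells also express.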

How the data were processed

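Polyadenylated RNA was sequenced as stranded single-end libraries of 75 nt. Per the submitters' processing notes the tools were STAR 2.5.2a and Cuffnorm 2.2.1 with mm10 (GRCm38), and the authors deposited 1 table of FPKM per gene and mouse. Groups come from the sample titles. For each gene that averaged 1 FPKM or more in a group, as in the study's methods, limma 3.58.1 (R 4.3.3; lmFit, eBayes with a trend) fitted log2(FPKM + 1), two-sided. FPKM hold no counts, so depth was estimated from the spacing of low values and no counting error was computed. Gene overlaps and distances come from GENCODE release M21, which holds all 64 identifiers, 42 of them with the same version. The members and lists were chosen with earlier results of these data known. Values per mouse are given for called members and the 10 most abundant tested ones, group means for other tested members, and the higher mean for the rest. In each other matrix list the 2 largest called rises and falls are named. The values of 1 tested member were left out of the text, while the totals over members include it. The procedure was tested on simulated data. Alternatives were other pseudocounts, minimum levels, scalings, variance models and thresholds, the replicate number as a block, and leaving out each mouse.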

Additional observations from a re-analysis of the deposited data

Results flagged for a closer look

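In 5 of the 64 sets of 5 mice formed by the 32 tested genes in FL and in KO, 1 mouse lay apart from the other 4, its gap to the nearest being more than 0.71 of the whole range. Chance alone gives about 3.2 of 64. Lamb1 was at 8.715 FPKM in FL mouse 2, against 6.57 to 7.18 FPKM in the other FL mice. Lama4 was also highest in FL mouse 2, at 4.14 FPKM against 3.002 to 3.28 FPKM. Lama5 was at 1.348 FPKM in KO mouse 2, against 3.43 to 4.19 FPKM in the other KO mice. Perlecan (Hspg2) was at 6.536 FPKM in KO mouse 5, against 3.86 to 4.63 FPKM. Col6a3 was at 5.812 FPKM in FL mouse 5, against 7.22 to 7.45 FPKM in the other FL mice.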

How the results depend on the processing

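Of the 16 called genes, Col3a1, Col5a2, Col6a1, Col6a2, Col6a6, Col16a1, Dcn and Sparc passed by adjusted p in each alternative fit in which they were tested, though Col6a2 and Sparc missed the 1.5-fold change on the log2(FPKM + 1) scale, and none of the 16 changed direction. The count higher in KO (14) was 5 with a minimum of 5 FPKM, which left 12 genes, and 5 with a 1.5-fold change on that scale required as well, against 8.27% and 2.67% of all genes. Leaving out 1 mouse gave 8 to 18: 8 without FL mouse 3 or 4 or KO mouse 1 or 5, 9 without KO mouse 4 and 18 without KO mouse 3. The count lower (2) was 0 at 5 FPKM and 1 without a minimum, under each of the 4 other scalings, with a 1.5-fold change required, and among genes at 1 FPKM or more in both groups, and 1 to 3 without 1 mouse. Of all genes, 19% were lower at 5 FPKM, 11.1% to 13.1% under these scalings, 2.22% with the 1.5-fold change and 12.3% to 18.3% without 1 mouse. The setting of 1 FPKM or more in both groups was added after the values had been seen. Among all genes, 2150 were lower and 1183 higher in the fit reported, and 1530 and 1614 after median ratio, 1455 and 1675 after upper quartile, 1528 and 1386 after TPM, and 1708 and 1494 after quantile scaling. The sign turned for 3 uncalled laminin chains. Lama5 had a log2 fold change of 0.001709 after upper quartile scaling, 0.1054 with sample weights and −0.1334 to 0.1541 without 1 mouse. Lamb2 had 0.01522 and 0.02127 with pseudocounts of 0.1 and 0.01, 0.02416, 0.02934 and 0.02561 after median ratio, upper quartile and TPM scaling, and −0.1205 to 0.1537 without 1 mouse. Lamb3 had −0.2828 to 0.008998 without 1 mouse, the highest without FL mouse 2. The cause of these changes was not tested. With the replicate number as a block, 11 genes were higher and 1 was lower, against 6.69% and 11.4% of all genes. The sample titles give a replicate number and do not say whether FL and KO mice of the same number were paired. The correlations of their deviations from the group means were −0.102 to 0.00305, and −0.175 to 0.12 for mice of different numbers. These values give no sign of pairing, but they cannot show whether such mice shared a litter or a batch.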
